A study of Mus musculus with 35 samples.

Results

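Unitary pseudogenes are genes that lost their protein-coding capacity in a lineage without leaving an intact copy elsewhere in the genome. They differ from processed pseudogenes, which are reinserted copies of spliced mRNAs, and from unprocessed pseudogenes, which arose by duplication, because the pseudogene is the former gene itself at its original place. Many therefore keep introns and can keep a promoter, and some are still transcribed into spliced RNA. The genes described here are all those with the biotype unitary_pseudogene or transcribed_unitary_pseudogene in the deposited mouse annotation, 72 of 55356 genes. Of these, 21 carry the transcribed biotype and 51 do not.

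The study sequenced RNA of adult C57BL/6J mice, an inbred wild-type strain, after depletion of ribosomal RNA. The RNA-seq part holds 29 libraries in 10 groups of a tissue and a sex, namely brain, cerebellum, heart and colon of females and of males, and the gonads of each sex. Of male heart there were 2 libraries and of every other group 3, so that a tissue rests on 6 libraries in brain, cerebellum and colon, 5 in heart and 3 in ovary and testis. Full-length Iso-seq reads from 6 flow cells, in which the somatic tissues of a sex were pooled, entered only through the annotation. The labels number the libraries and do not say whether they came from separate animals, so the P values below measure the spread between these libraries, which may be technical.

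Levels are given as FPKM, the counts of a gene scaled to the total of the library (CPM) and divided by its exon length in kilobases. The total count ranged from 11742417 to 36194255 per library with a median of 24403774, and unitary pseudogenes took 0.0233% to 0.0283% of it in testis and 0.00145% to 0.00756% in the other tissues. Of 12 marker genes of the 6 tissues, 11 were higher in every library of their tissue than in any other library. The testis marker *Prm1*, at 4298 FPKM or more in testis, stood at 7.01, 3.09 and 2.23 FPKM in female colon replicate 1, female colon replicate 3 and male colon replicate 3, and at 0.492 FPKM or less in every other library. The choroid plexus marker *Ttr* ranged from 15.7 to 1535 FPKM over the brain and from 1007 to 3816 FPKM over the cerebellum libraries. Female heart replicate 3 stood apart from the other 4 heart libraries in the fat cell marker *Adipoq*, at 695 FPKM against 1.74 FPKM or less, and in the atrial marker *Sln*, at 135 FPKM against 2.59 FPKM or less. The part of these cells in the results was not tested. The counts also mixed strands where genes overlap. Among 77 genes with at least 90% of their exon bases inside the exons of a protein-coding gene on the opposite strand, the median level was 1.14 times that of the coding gene (quartiles 0.836 and 1.58), whereas the median ratio was 0 for 38 such genes on the same strand. For a unitary pseudogene that shares exon bases with a gene on the opposite strand, which held for 14 of the 72, the RNA of the 2 strands cannot be told apart, and the level of the partner is given beside each such gene described below. In bulk tissue, fewer cells of a type and less RNA per cell cannot be told apart either.

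Most unitary pseudogenes had the exon and intron layout of an ordinary gene. More than 1 exon was annotated for 67 of the 72 (93.1%), against 10.8% of 10297 processed, 51.4% of 2955 unprocessed and 61.4% of 88 polymorphic pseudogenes, 91.9% of 9957 lncRNAs and 92.6% of 21652 protein-coding genes. Here and below, the other classes also take Iso-seq loci by the reference biotype of the genes mapped to them, whereas the 72 hold no such loci. The median was 4 exons, and the largest numbers were 46 exons in *Gm49960*, 36 in *Dcdc5* and 22 in *AC153579.1*. Taking for each gene the transcript with most exons, there were 378 introns, and only 1 of them, in *AC166934.1*, was shorter than 30 bases. The 2 biotypes differed in size, with a median of 2976 exon bases per gene for the transcribed biotype and 561 for the other. All 51 genes without the transcribed biotype were annotated with a single transcript, against 1 of the 21 with it.

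Junction sequences show how the annotated RNAs join their exons. The following stretches were taken from the transcripts of GENCODE release M21 (GRCm38), with the last 15 bases of the upstream exon in lower case and the first 15 bases of the downstream exon in capitals, and were chosen because these genes had the highest levels in testis, colon or ovary among those whose reference transcript has the length of the deposited one.
1700086L19Rik: acacgcagtcttcggATCCCAGGTCCCCAT
Abhd11os: taagctcatagaaagAACCCAGAATCCCAA
Gm4275: aaaacaaaaccacagATGAAGCTGCTGATG
4930451G09Rik: cagcacggggacaagGACTCCTTGATGATG
4932431P20Rik: attcaacaaagcaagAAACCCAGAGCGGAG
2810039B14Rik: cctcccattcgcaagGCTCTCCCTGTTCCA
The introns removed at these junctions are 1058, 296, 159, 1102, 2627 and 2837 bases long, in the order of the lines, and each is the first intron of its transcript. The deposited counts are per gene, so they do not say how many reads crossed a junction.

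The open reading frames in the reference transcripts were mostly short. Transcript sequences were found for 40 of the 72, and the longest frame from ATG to a stop had a median of 87.5 codons. It reached 100 codons in 18 of the 40. The longest by far was that of *4932431P20Rik*, with 3095 codons in a spliced transcript of 9288 bases, although its transcript is annotated as a transcribed unitary pseudogene. *Dcdc5*, named after the doublecortin domain of microtubule-binding proteins, held 913 codons in 5296 bases, and *4930519F16Rik* held 290 codons in 1113 bases. At the other end, *1700086L19Rik* and *Abhd11os*, which had the highest levels of all 72, held at most 51 and 46 codons. These lengths describe the reference sequence and not translation.

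**Figure D1:**
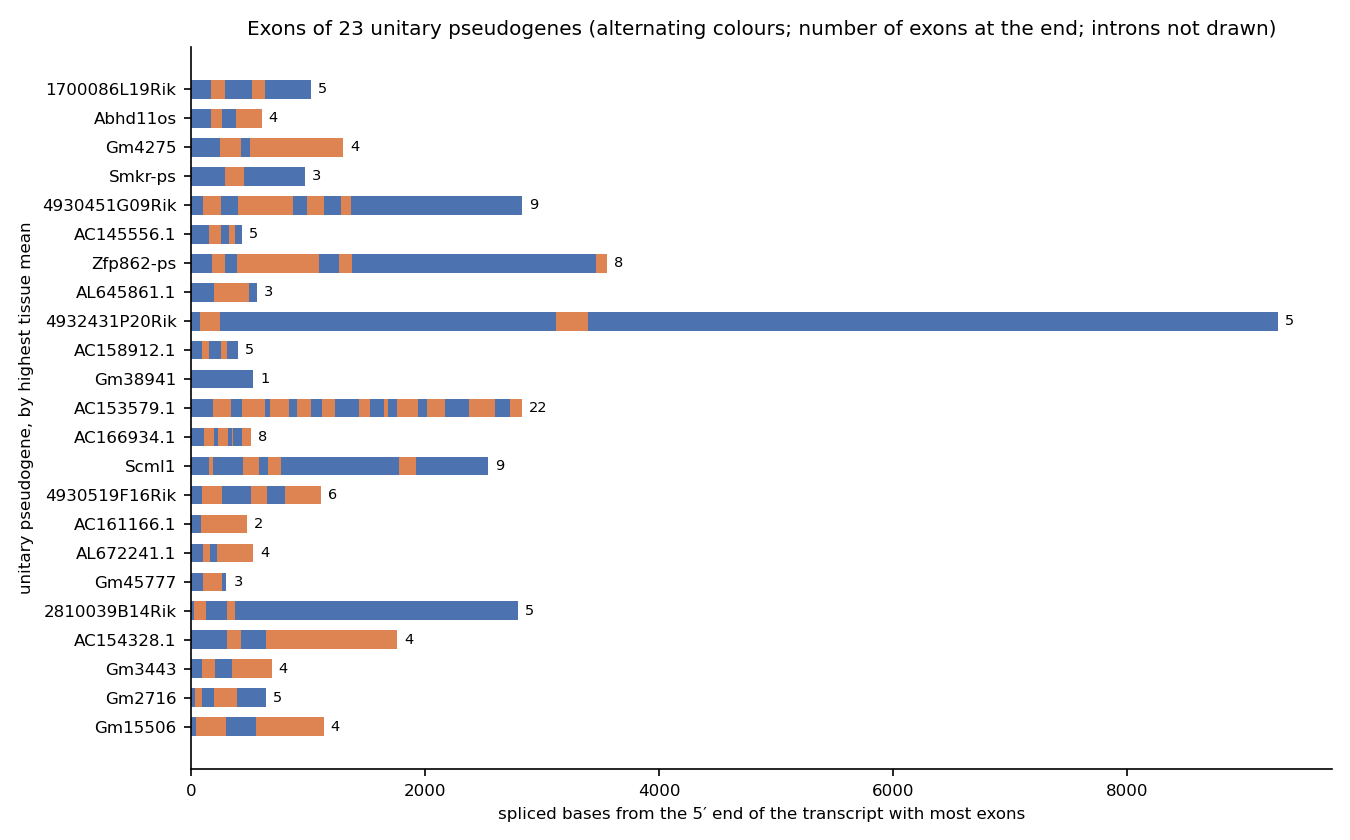
Exons of the 23 unitary pseudogenes at 1 FPKM or more, drawn to scale along the spliced transcript with most exons; the horizontal axis gives bases from the 5′ end, alternating colours mark consecutive exons, and the number at the end of each bar is the number of exons. The genes are ordered by their highest tissue mean, and they range from 1 exon in Gm38941 to 22 exons in AC153579.1 and up to 9288 spliced bases in 4932431P20Rik.

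For 7 of the 72 genes, a RefSeq start site lay within 200 bases of an annotated transcript start. The 300 bases around it, 250 before and 50 after the start, are shown for 3 genes that were high in testis and for the gene that was high in colon (GRCm38.p6, 5′ to 3′ on the strand of the gene). They are chr12:74284026-74284325 on the plus strand, chr6:29985079-29985378 on the plus strand, chrX:161832073-161832372 on the minus strand and chr5:135013108-135013407 on the minus strand. Capitals mark matches, on either strand, to the CCAAT box (CCAAT), the GC box (GGGCGG), the half-site of the cyclic AMP response element (TGACGT), the RFX half-site (GTTGCC), the TATA box (TATAAA) and a CDX site (TTTATNG).
1700086L19Rik: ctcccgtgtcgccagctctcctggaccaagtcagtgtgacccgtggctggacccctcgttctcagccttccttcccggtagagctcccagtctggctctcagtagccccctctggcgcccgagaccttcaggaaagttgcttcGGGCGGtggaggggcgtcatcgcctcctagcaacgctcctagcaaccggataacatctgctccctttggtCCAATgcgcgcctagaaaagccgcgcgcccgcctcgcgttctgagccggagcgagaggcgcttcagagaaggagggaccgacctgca
Smkr-ps: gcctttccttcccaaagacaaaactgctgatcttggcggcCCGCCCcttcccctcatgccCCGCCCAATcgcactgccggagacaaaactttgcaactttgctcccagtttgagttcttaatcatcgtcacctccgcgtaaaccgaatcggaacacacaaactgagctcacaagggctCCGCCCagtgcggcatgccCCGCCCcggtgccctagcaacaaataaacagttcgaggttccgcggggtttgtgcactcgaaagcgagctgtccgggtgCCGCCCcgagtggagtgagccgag
Scml1: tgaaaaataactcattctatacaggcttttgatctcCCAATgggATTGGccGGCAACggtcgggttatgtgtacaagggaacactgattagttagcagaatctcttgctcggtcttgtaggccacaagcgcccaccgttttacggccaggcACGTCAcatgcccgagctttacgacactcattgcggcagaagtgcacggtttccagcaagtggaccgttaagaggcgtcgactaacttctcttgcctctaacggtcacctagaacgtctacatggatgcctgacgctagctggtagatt
Abhd11os: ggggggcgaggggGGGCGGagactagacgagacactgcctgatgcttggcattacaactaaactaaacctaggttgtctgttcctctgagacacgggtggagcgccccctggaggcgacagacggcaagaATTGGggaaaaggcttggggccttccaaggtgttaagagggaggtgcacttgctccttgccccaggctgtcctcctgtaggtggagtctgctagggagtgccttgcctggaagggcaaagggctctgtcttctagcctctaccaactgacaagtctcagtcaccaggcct
Of all 32851 RefSeq promoters of this length, 37.4% held CCAAT, 35.7% GGGCGG, 7.51% TGACGT, 12.5% GTTGCC, 13.6% TATAAA and 10.9% TTTATNG. The window of *Smkr-ps* held 5 GC boxes and 1 CCAAT box, which overlaps a GC box, and that of *Scml1* held 2 CCAAT boxes, 1 TGACGT and 1 GTTGCC. The windows of *1700086L19Rik* and *Abhd11os* each held 1 CCAAT box and 1 GC box, and none of the 4 held TATAAA or TTTATNG. The 4 were chosen for display after their values were seen, and the other 3 windows held other matches. That of *Gm4275*, high in testis, held 1 TATAAA and no other match, that of *4930519F16Rik*, also highest in testis, held 1 GTTGCC and no other match, and that of *Gm15506*, highest in ovary, held 4 GC boxes. CpG dinucleotides numbered 25 for *1700086L19Rik*, 23 for *Smkr-ps*, 18 for *Scml1*, 7 for *Abhd11os*, 3 for *Gm4275*, 1 for *4930519F16Rik* and 32 for *Gm15506*, against a median of 7 (quartiles 3 and 20) over all promoters. These matches are a description of the letters in these windows.

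RNA was detected from nearly all of these genes, but most were weak. Reads were counted on 68 of the 72, 55 had 10 counts or more in all, and 10 had counts in all 29 libraries. In their tissue of highest mean, 23 of the 72 (31.9%) reached 1 FPKM, and 5 reached 10 FPKM. The same share was 9.43% for processed, 9.002% for unprocessed and 12.5% for polymorphic pseudogenes, 42.4% for lncRNAs and 76.3% for protein-coding genes, and the level in the top tissue had a median of 0.286 FPKM over unitary pseudogenes, 0.0497 FPKM over processed pseudogenes, 0.656 FPKM over lncRNAs and 10.6 FPKM over protein-coding genes. The transcribed biotype accounted for 14 of the 23, which is 66.7% of its 21 genes, and the other biotype for 9 of 51 (17.6%). Just inside the limit stood *Gm15506* at 1.08 ± 0.129 FPKM in ovary (SD, n = 3), and just outside it *Gm49299* at 0.971 ± 0.405 FPKM in colon (SD, n = 6).

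Their tissue was most often testis. Of the 23, 12 were highest in testis, 8 in ovary and 1 each in colon, heart and cerebellum, and 0 were highest in brain. Among all 23732 genes that reached 1 FPKM and passed the filter described below, 6853 were highest in testis and 5251 in ovary. Of all 68 with counts, 26 were highest in testis (38.2%), beside 33.2% of processed, 60.1% of unprocessed and 47.4% of polymorphic pseudogenes, 40.1% of lncRNAs and 28.1% of protein-coding genes with counts. Tau, an index that runs from 0 for even expression to 1 for expression in a single tissue, had a median of 0.908 over the 23. It was 0.989 for those highest in testis and 0.647 for those highest in ovary. At 1 FPKM, 14 were seen in a single tissue and only *Abhd11os* in all 6.

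**Figure D2:**
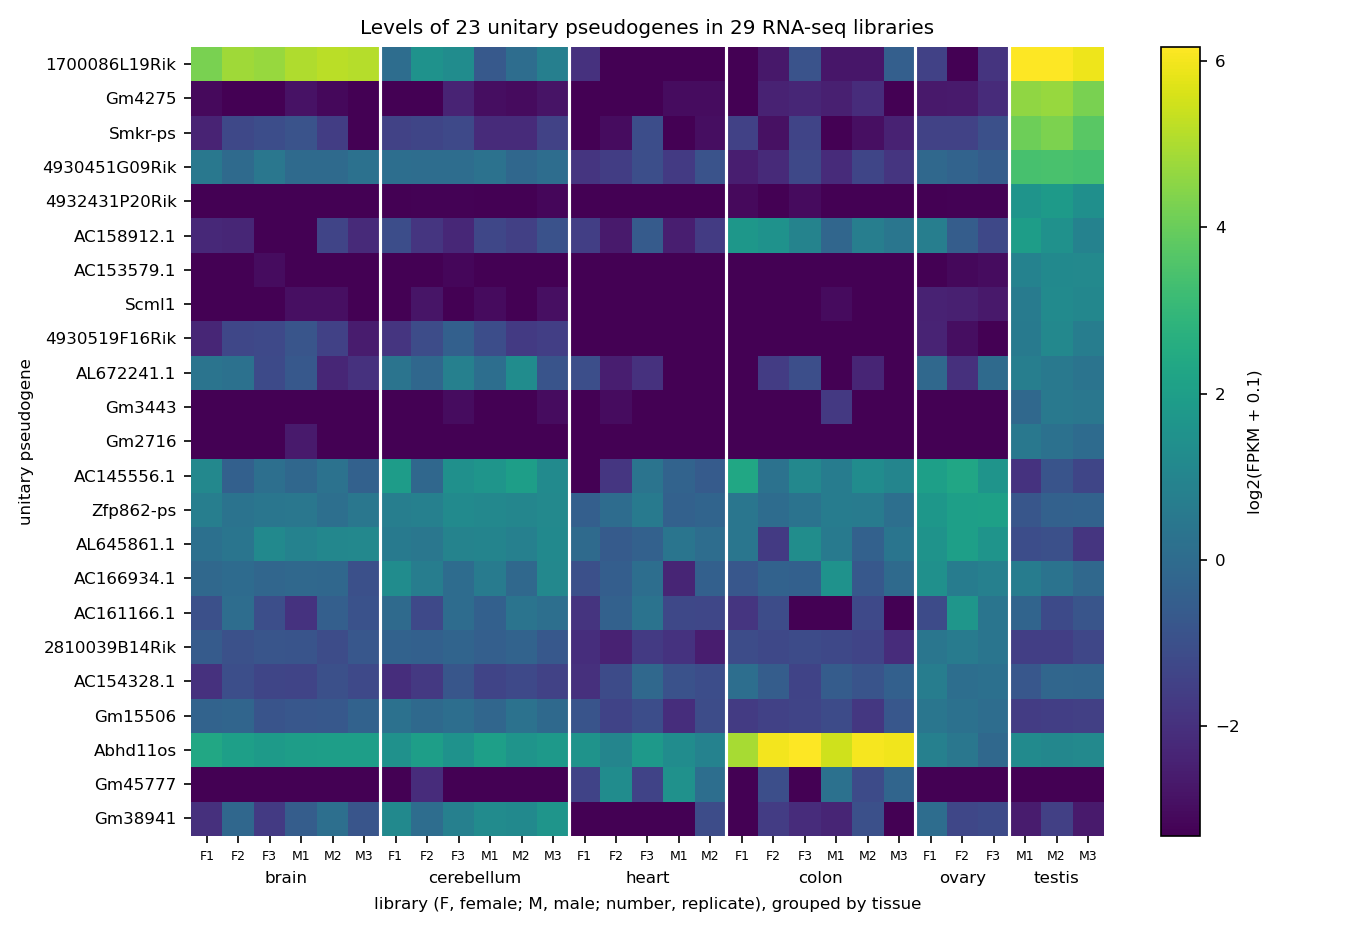
Heat map of the 23 unitary pseudogenes with a tissue mean of 1 FPKM or more (rows, grouped by the tissue of their highest mean) in the 29 libraries (columns, grouped by tissue; F, female; M, male); the colour gives log2(FPKM + 0.1). The 12 genes at the top are highest in testis, the next 8 in ovary, and Abhd11os stands out in the 6 colon libraries.

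Each tissue was compared with the mean of the other 5 by edgeR's quasi-likelihood test on the counts, and a gene counts as called below an adjusted P of 0.05. This mean is taken over the log2 levels of the 5 tissues, so tissues near 0 pull it down. A gene can therefore be called higher in a tissue that lies below the average FPKM of the others. Examples are *Scml1* in ovary and *4930519F16Rik* in brain, which were far higher in testis. A filter on low counts left 36 of the 72 unitary pseudogenes, including all 23 at 1 FPKM, among 29911 genes tested. Since a gene that is high in a single tissue passes this filter through that tissue, the counts of calls describe the 36 and not the 72. By this test 22 of the 23 were higher in the tissue of their highest mean, and in 15 all libraries of that tissue lay above all others, 10 of the 12 in testis and 4 of the 8 in ovary. The tissue was chosen by the mean, which partly fixes such calls. Among all 23732 genes tested that reached 1 FPKM, 92.7% were called higher in the tissue of their highest mean and 54.5% were called with all libraries above all others, and the libraries lay above all others for 86.9% of those highest in testis and 43.8% of those highest in ovary, so the counts of unitary pseudogenes are near the background. In testis, 16 of the 36 were higher and 6 lower (44.4% and 16.7%), where 40.4% and 26.7% of all genes tested were called. In ovary, 10 were higher and 3 lower, with 22.4% and 19.8% of all genes. In colon, 10 were higher and 7 lower, with 28.2% and 31.1% of all genes. In cerebellum, 11 were higher and 3 lower, with 30.8% and 22.0% of all genes, and in brain 7 were higher and 4 lower, with 33.0% and 23.1% of all genes. Heart had the fewest higher calls, 2 of 36 with 8 lower, where 22.1% and 29.6% of all genes were called. With DESeq2, which tested 40 to 50 of the 72, the higher and lower calls were 7 and 9 in brain, 11 and 5 in cerebellum, 2 and 13 in heart, 10 and 14 in colon, 7 and 6 in ovary, and 14 and 6 in testis, where it called 54.7%, 53.4%, 55.2%, 60.1%, 48.2% and 56.3% of all genes in either direction. The median log2 difference of the 36, which depends on the filter in the same way, was 0.59 in testis, 0.24 in ovary, -0.74 in colon, 0.29 in cerebellum, -0.48 in brain and -1.40 in heart, where the median over all genes tested was 0.10, -0.15, -0.38, -0.10, -0.10 and -0.55.

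**Figure D3:**
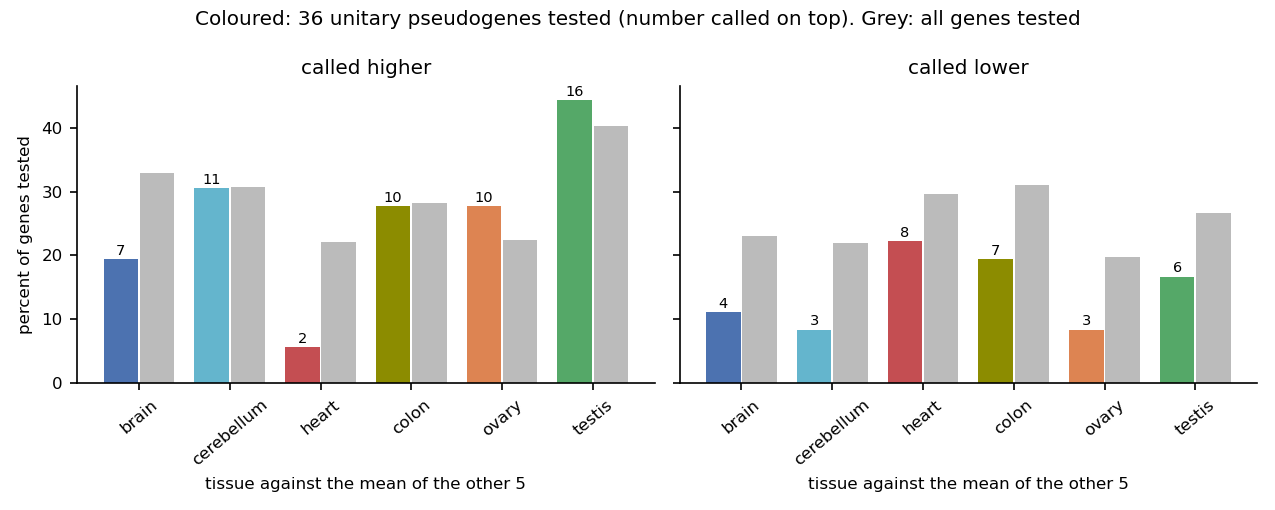
Percent of genes called higher (left) or lower (right) in each tissue against the mean of the other 5, for the 36 unitary pseudogenes tested (coloured bars, with the number called on top) and for all 29911 genes tested (grey bars). The share of unitary pseudogenes called higher is closest to that of all genes in cerebellum and colon and lowest beside it in heart, where 2 were called.

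The most abundant was *1700086L19Rik* (ENSMUSG00000071265, chromosome 12, 74284242 to 74295945, plus strand, 5 exons), which was high in testis and in brain. In testis it was at 71.8, 71.0 and 61.5 FPKM, with 2033 to 2361 counts per library. In the 6 brain libraries it ranged from 19.05 to 36.8 FPKM with a median of 30.4 FPKM, so the groups did not overlap. Cerebellum, although also brain tissue, was far lower at 0.536 to 2.79 FPKM (median 1.30 FPKM), and the highest library of heart, colon or ovary was at 0.628 FPKM. It was called higher in testis (log2 difference 7.55 ± 0.31, SE, adjusted P = 5.5e-17) and in brain (5.84 ± 0.30, adjusted P = 6.16e-15), and lower in heart (-6.93 ± 0.92, adjusted P = 4.93e-07). Of its 19 colon counts, 7 and 9 were in female colon replicate 3 and male colon replicate 3, which are among the colon libraries with *Prm1*, whereas female colon replicate 1, where *Prm1* was highest in colon, had 0. The part of testis RNA in these counts was not tested. Its nearest gene, *Dbpht2*, begins 723 bases away, and none of its exon bases lie in another gene.

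Several genes were nearly confined to testis libraries by their counts. *Gm4275* (ENSMUSG00000099422, chromosome 7, 130523470 to 130529501, plus strand, 4 exons) was at 24.1, 26.1 and 19.1 FPKM in testis. Its 3 testis libraries held 4172 counts and the other 26 libraries 41, with 7 at most in a library. It was called higher in testis (9.88 ± 0.29, SE, adjusted P = 2.1e-19). The small gene *Gm27884* shares 76 of its 2006 exon bases on the opposite strand and stood at 115 ± 16.5 FPKM in testis (SD, n = 3).

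*Smkr-ps* (ENSMUSG00000045709, chromosome 6, 29985235 to 29993778, plus strand, 3 exons), the mouse relic of a gene for a small lysine-rich protein, was at 16.9, 19.6 and 13.2 FPKM in testis. No other library exceeded 0.439 FPKM, and the 3 testis libraries held 2519 of its 2718 counts (7.08 ± 0.36, SE, adjusted P = 1.52e-15). It was detected at a low level in most other tissues, with tissue means of 0.0846 FPKM in heart to 0.309 FPKM in ovary. The heart mean rested on female heart replicate 3, which held 15 of the 17 heart counts and was the library high in *Adipoq* and *Sln*, and without it the mean of the other 4 was 0.0131 FPKM. In colon the libraries with *Prm1*, at 0.253, 0.282 and 0.0890 FPKM, lay above the other 3, at 0.0347 FPKM or less.

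*4930451G09Rik* (ENSMUSG00000022543, chromosome 16, 4964289 to 4978962, plus strand, 9 exons) had the most even replicates in testis, at 10.5, 10.8 and 10.2 FPKM. Unlike the preceding genes it had counts in all 29 libraries, and its tissue means were 1.04 FPKM in brain, 0.949 FPKM in cerebellum, 0.704 FPKM in ovary, 0.288 FPKM in heart and 0.183 FPKM in colon. Brain and cerebellum overlapped, while every colon library lay below every brain, cerebellum and ovary library. The gene was called higher in testis (4.60 ± 0.17, SE, adjusted P = 8.7e-19) and lower in colon (-2.78 ± 0.23, adjusted P = 5.87e-11).

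*4932431P20Rik* (ENSMUSG00000074224, chromosome 7, 29524543 to 29538055, plus strand, 5 exons), the gene with the long open reading frame, was at 2.95, 3.52 and 2.57 FPKM in testis. Because it is long, this rested on 795, 1032 and 750 counts, against 12 counts in the other 26 libraries together (11.15 ± 0.35, SE, adjusted P = 1.19e-14). Of these 12, 2 and 3 were in female colon replicates 1 and 3, both among the colon libraries with *Prm1*, while male colon replicate 3 had 0 and male cerebellum replicate 3, with *Prm1* at 0.0714 FPKM, had 3. Its neighbour on the same strand, *4930432E11Rik*, lies 20523 bases downstream, is another unitary pseudogene, and was also higher in testis at 0.427, 0.544 and 0.452 FPKM (7.43 ± 0.46, SE, adjusted P = 5.83e-12). The highest other library of *4930432E11Rik* was at 0.0450 FPKM, and 2321 of its 10871 exon bases are shared with *Gm29326* on the opposite strand, which was at 0.857 ± 0.269 FPKM in testis (SD, n = 3), and 7 with *A330087D11Rik*, which was at 0.0344 ± 0.0405 FPKM there.

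Lower in the range, *AC153579.1* (ENSMUSG00000118448, chromosome 6, 122372906 to 122409075, minus strand, 22 exons) was at 1.74, 2.15 and 2.14 FPKM in testis and at 0.0259 FPKM or less in every other library (9.31 ± 0.44, SE, adjusted P = 4.81e-11). It carries the biotype without the word transcribed. On the opposite strand, *1700063H04Rik* shares 238 of its 2827 exon bases and was at 8.64 ± 0.947 FPKM in testis (SD, n = 3) and 0.0380 FPKM or less in the other tissue means.

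*Scml1* (ENSMUSG00000086540, X chromosome, 161814690 to 161832176, minus strand, 9 exons), related to the Polycomb group protein Scm, was at 1.45, 2.21 and 2.01 FPKM in testis (7.92 ± 0.44, SE, adjusted P = 5.69e-12). It was also called higher in ovary (1.58 ± 0.57, SE, adjusted P = 0.0319), where the 3 libraries held 4, 5 and 4 counts, or 0.0561 to 0.0874 FPKM. This call was lost with DESeq2 (adjusted P = 0.211), and without ovary replicate 1 or 2 (adjusted P = 0.0702 and 0.0799 with edgeR). Heart had 0 counts in its 5 libraries and colon 1 count in 6. *Scml1* is among the 4 unitary pseudogenes on the X chromosome.

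*4930519F16Rik* (ENSMUSG00000031325, X chromosome, 103182971 to 103311782, minus strand, 6 exons) was at 1.35, 2.07 and 1.55 FPKM in testis and had a second, lower level in the brain. It ranged from 0.0668 to 0.469 FPKM in brain (median 0.285 FPKM) and from 0.176 to 0.662 FPKM in cerebellum (median 0.298 FPKM), and it had 0 counts in the 11 libraries of heart and colon. It was called higher in testis (6.40 ± 0.48, SE, adjusted P = 5.92e-10), in cerebellum (3.19 ± 0.52, adjusted P = 3.14e-05) and in brain (2.92 ± 0.53, adjusted P = 8.7e-05).

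*Dcdc5* (ENSMUSG00000074981, chromosome 2, 106003336 to 106406151, plus strand, 36 exons) had the same order of tissues below 1 FPKM. It was at 0.561, 0.556 and 0.591 FPKM in testis, at a mean of 0.244 ± 0.0581 FPKM over the 6 cerebellum and 0.170 ± 0.0751 FPKM over the 6 brain libraries (± SD), and at 0.0472 FPKM or less in every library of heart, colon and ovary. It was called higher in testis (4.72 ± 0.43, SE, adjusted P = 5.38e-10), cerebellum (2.84 ± 0.42, adjusted P = 2.5e-06) and brain (2.37 ± 0.43, adjusted P = 3.98e-05). The brain and cerebellum libraries overlapped. Within brain, the 3 libraries with *Ttr* at 431 FPKM or more were at 0.211, 0.163 and 0.294 FPKM and the 3 with *Ttr* at 38.6 FPKM or less at 0.140, 0.141 and 0.0727 FPKM. On the opposite strand, *Dnajc24* and *Gm29053* share 84 and 120 of its 9014 exon bases. *Dnajc24* had tissue means of 4.62 FPKM in heart to 8.74 FPKM in cerebellum, and *Gm29053* was at 2.50 ± 0.647 FPKM in testis (SD, n = 3) and at 0.170 FPKM or less in the other tissue means.

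*Gm3443* (ENSMUSG00000079382, chromosome 19, 21552204 to 21557867, plus strand, 4 exons) and *Gm2716* (ENSMUSG00000110719, chromosome 8, 88051511 to 88070810, minus strand, 5 exons) were the weakest testis genes at 1 FPKM and lie far from any other gene, at 39446 and 47959 bases. *Gm3443* was at 0.815, 1.34 and 1.26 FPKM in testis, from 165 counts, with 9 counts in the other 26 libraries, 6 of them in male colon replicate 1. *Gm2716* was at 1.31, 1.06 and 0.910 FPKM, from 24, 21 and 18 counts, with 1 count elsewhere. Both were called with edgeR (7.66 ± 0.60, SE, adjusted P = 4.4e-09, and 7.10 ± 0.56, adjusted P = 6.09e-07). With DESeq2, the log2 differences were 7.56 and 6.70 and the adjusted P was 0.168 and 0.230, so that both calls were lost with a difference of similar size.

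The other 2 genes highest in testis were not separate from the rest. *AC158912.1* (chromosome 5, 108434470 to 108441598, plus strand, 5 exons) was at 3.79, 2.68 and 1.73 FPKM in testis and at 0.783 to 3.15 FPKM in colon (median 1.69 FPKM), and it was called higher in both (3.08 ± 0.39 and 1.91 ± 0.36, SE, adjusted P = 1.2e-07 and 4.79e-05). *Mfsd7a*, which shares 3 of its 676 exon bases on the opposite strand, had means of 3.42 ± 0.593 FPKM over the 6 colon and 0.181 ± 0.0285 FPKM over the 3 testis libraries (± SD). *AL672241.1* (chromosome 2, 90891773 to 90893198, minus strand, 4 exons) was at 1.58, 1.33 and 1.16 FPKM in testis and at 0.459 to 2.38 FPKM in cerebellum (median 1.08 FPKM). On the opposite strand, *C1qtnf4* covers 430 of its 533 exon bases and had means of 18.96 ± 0.884 FPKM over the 3 testis, 6.49 ± 1.11 FPKM over the 6 brain and 5.96 ± 1.53 FPKM over the 6 cerebellum libraries (± SD), so that both genes had their highest mean in testis. *AL672241.1* had means of 0.617 ± 0.404 FPKM in ovary (n = 3) and 0.555 ± 0.454 FPKM in brain (n = 6, ± SD), where *C1qtnf4* was at 0.711 and 6.49 FPKM.

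**Figure D4:**
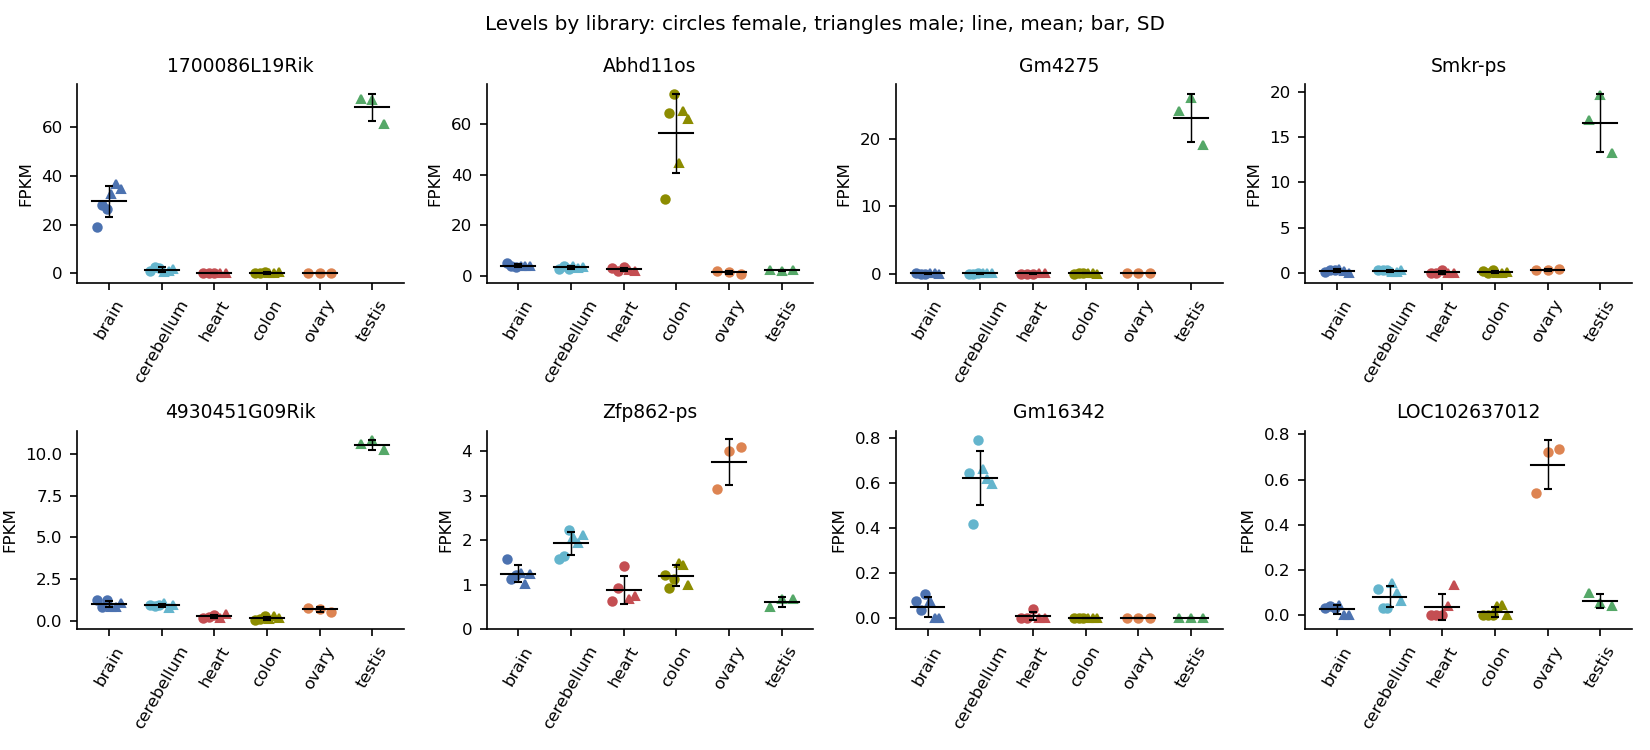
Levels of 8 unitary pseudogenes in every library in FPKM, by tissue (circles, female; triangles, male; horizontal line, mean; bar, SD); each panel has its own vertical axis. 1700086L19Rik is high in testis and brain but not cerebellum, Abhd11os in colon, Gm4275, Smkr-ps and 4930451G09Rik in testis, Zfp862-ps and LOC102637012 in ovary, and Gm16342 in cerebellum.

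In colon, *Abhd11os* (ENSMUSG00000085042, chromosome 5, 135012114 to 135013253, minus strand, 4 exons) stood far above all other unitary pseudogenes. It ranged from 30.4 to 72.0 FPKM in the 6 colon libraries with a median of 63.3 FPKM. The highest library of any other tissue was at 5.04 FPKM, in brain, and all 29 libraries had counts. The mean was 14.1 times that of brain, the next tissue, and the gene was called higher in colon (4.42 ± 0.15, SE, adjusted P = 6.25e-19). It was lowest in ovary, where its 3 libraries, at 1.66, 1.26 and 0.813 FPKM, lay below every other library (-2.59 ± 0.29, SE, adjusted P = 4.07e-08). *Abhd11*, an alpha/beta hydrolase gene on the opposite strand, shares 55 of the 701 exon bases and had another pattern, with means of 27.0 ± 3.41 FPKM over the 5 heart, 23.8 ± 0.685 FPKM over the 3 testis and 18.8 ± 3.70 FPKM over the 6 colon libraries (± SD).

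Other genes that were highest in colon were near or below 1 FPKM. *Gm20574* (8 exons) ranged from 0.222 to 1.66 FPKM in colon (median 0.891 FPKM), with 74 of its 87 counts there (5.21 ± 0.54, SE, adjusted P = 5.78e-08). *AL928857.1* (1 exon) was called higher in both colon and testis, with means of 0.715 ± 0.342 FPKM (SD, n = 6) and 0.520 ± 0.175 FPKM (SD, n = 3). *Gm49299* (5 exons), at 0.439 to 1.46 FPKM in colon, was called higher there (2.50 ± 0.60, SE, adjusted P = 0.000763). It shares 43 of its 362 exon bases with *Mdp1* on the same strand, which was at 22.9 ± 3.18 FPKM in colon (SD, n = 6). *Gm49817* (14 exons) and *CT025692.1* (5 exons) were also called higher in colon (3.22 ± 0.45 and 2.85 ± 0.79, SE, adjusted P = 7.29e-07 and 0.00322), the latter only with female colon replicate 3 (adjusted P = 1 without it). Higher in colon was also *Slc2a4rg-ps* (8 exons), named after a regulator of the glucose transporter gene GLUT4. It was at 0.570 to 1.32 FPKM in colon and at 1.17, 0.526 and 1.04 FPKM in ovary, and it was called higher in both (1.28 ± 0.32 and 1.08 ± 0.40, SE, adjusted P = 0.00116 and 0.0322), but in ovary not without replicate 1 or 3 (adjusted P = 0.150 and 0.161) nor with DESeq2 (0.0563) or RLE factors, another scaling of the libraries (0.0552).

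The 8 genes at 1 FPKM that were highest in ovary were less confined to their tissue than those of testis, by the median tau given above. Tau was not computed for other genes. Over all genes tested at 1 FPKM or more, libraries also lay above all others less often for those highest in ovary (43.8%) than in testis (86.9%). *Zfp862-ps* (ENSMUSG00000107476, chromosome 6, 48504337 to 48534832, plus strand, 8 exons), the relic of a zinc finger gene, was at 3.16, 4.004 and 4.10 FPKM in ovary. The other 26 libraries ranged up to 2.23 FPKM, in cerebellum, and testis was low at 0.489, 0.677 and 0.685 FPKM, overlapping heart, where the lowest library was at 0.631 FPKM. Ovary was higher than the other tissues (1.30 ± 0.13, SE, adjusted P = 8.14e-09) and testis lower (-1.06 ± 0.16, adjusted P = 2.44e-06). With 7168 counts in all, it is among the best measured of the 72. *Gm7887* shares 67 of its 6973 exon bases on the opposite strand and was at 0.7003 ± 0.312 FPKM in ovary and 0.121 ± 0.159 FPKM in testis (SD, n = 3 each).

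*2810039B14Rik* (ENSMUSG00000099034, chromosome 15, 75642129 to 75653643, plus strand, 5 exons) was at 1.24, 1.46 and 1.19 FPKM in ovary, above every other library, of which the highest was at 0.742 FPKM in cerebellum (1.56 ± 0.19, SE, adjusted P = 2.44e-07). *Gm15506* (chromosome 7, 98682336 to 98702928, minus strand, 4 exons) was at 1.22, 1.06 and 0.959 FPKM in ovary and overlapped cerebellum, which ranged from 0.777 to 1.09 FPKM. It was called higher in both, by 0.86 ± 0.24 in ovary (SE, adjusted P = 0.00497) and 0.99 ± 0.19 in cerebellum (adjusted P = 6.49e-05), and lower in colon and testis.

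*LOC102637012* (ENSMUSG00000111473, chromosome 7, 47057353 to 47074687, minus strand, 18 exons) did not reach 1 FPKM but was the most separate in ovary. It was at 0.541, 0.721 and 0.737 FPKM there, from 25, 46 and 53 counts, and no other library exceeded 0.143 FPKM (4.20 ± 0.46, SE, adjusted P = 1.23e-07).

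The remaining ovary genes had weaker support. *AC145556.1* was at 3.97, 4.82 and 2.88 FPKM in ovary and overlapped colon, where female colon replicate 1 was at 4.92 FPKM, and cerebellum, which reached 3.91 FPKM. Its adjusted P was 0.00580, and 0.0607 without ovary replicate 2. *AL645861.1* was at 2.87, 4.01 and 2.92 FPKM, above the 2.42 FPKM of the highest other library, with an adjusted P of 0.00440, and 0.0553 without ovary replicate 2. *Exoc7* covers 366 of its 561 exon bases on the opposite strand and had means of 12.4 ± 1.26 FPKM over the 3 ovary and 13.6 ± 0.752 FPKM over the 3 testis libraries (± SD), where *AL645861.1* was lowest at 0.318 ± 0.125 FPKM (SD, n = 3). *AC154328.1*, whose exons lie within *Ipo11* on the same strand and share 122 of their 2729 bases with its exons, was at 1.52, 0.986 and 1.03 FPKM, with an adjusted P of 0.0135, and 0.102 without ovary replicate 1. *AC161166.1* rested on ovary replicate 2, at 3.10 FPKM beside 0.347 FPKM in replicate 1 and 1.19 FPKM in replicate 3, and its adjusted P rose from 0.0328 to 0.782 without it. *Adipoq* was at 5.08, 74.9 and 47.8 FPKM in ovary replicates 1, 2 and 3, and the part of fat in the ovary values was not tested. *AC166934.1* did not pass the test (0.54 ± 0.39, SE, adjusted P = 0.301), and the Iso-seq locus PB.9136, which shares 81 of its 514 exon bases on the opposite strand, was at 1.41 ± 0.324 FPKM in ovary (SD, n = 3).

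In cerebellum, all libraries of *Gm16342* (ENSMUSG00000086162, chromosome 11, 102732405 to 102752861, plus strand, 11 exons) lay above those of every other tissue. It ranged from 0.418 to 0.792 FPKM in the 6 cerebellum libraries (median 0.633 FPKM), reached 0.107 FPKM in brain, and had 1 count in the 17 libraries of heart, colon, ovary and testis together (5.96 ± 0.50, SE, adjusted P = 1.9e-08). Its 3 brain libraries with *Ttr* at 431 FPKM or more were at 0.0758, 0.107 and 0.0759 FPKM, above the 0.0342 FPKM or less of the other 3. These values rest on at most 3 counts in a library, and a link to *Ttr* was not tested. *Gm38941* (chromosome 7, 5054472 to 5055000, plus strand, 1 exon) ranged from 0.958 to 3.01 FPKM in cerebellum (median 2.18 FPKM) and from 0.147 to 0.992 FPKM in brain (3.28 ± 0.42 for cerebellum, SE, adjusted P = 3.4e-07). It lies whole within an intron of *Gm15510* on the opposite strand, which had means of 3.17 ± 0.572 FPKM over the 6 cerebellum and 2.25 ± 0.463 FPKM over the 6 brain libraries (± SD). *Gm44544* (2 exons) was called higher in cerebellum and brain (3.43 ± 0.64 and 2.84 ± 0.63, SE, adjusted P = 0.000151 and 0.000739). It lies within *Zfp385c* on the same strand without sharing exon bases, a zinc finger gene with means of 17.0 ± 5.02 FPKM over the 6 cerebellum and 0.459 ± 0.181 FPKM over the 6 brain libraries (± SD).

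In heart, *Gm45777* (ENSMUSG00000110677, chromosome 12, 103368772 to 103372467, plus strand, 3 exons) was the only gene with its highest mean at 1 FPKM or more, and its libraries differed widely. The 5 heart libraries were at 0.273, 2.39 and 0.277 FPKM in females and 2.71 and 0.967 FPKM in males, from 2 to 18 counts each. Colon reached 1.06 FPKM, cerebellum had 1 count, and brain, ovary and testis had 0 counts. It was called higher in heart (5.75 ± 0.69, SE, adjusted P = 2.38e-06) and in colon (2.67 ± 0.84, adjusted P = 0.0119), where the call was lost without female colon replicate 2 (adjusted P = 1) and with DESeq2 (0.136). *Zfp133-ps* was the other gene called higher in heart (0.74 ± 0.21, SE, adjusted P = 0.00381, and 0.0595 without male heart replicate 1), although its highest mean was in brain, at 0.879 ± 0.161 FPKM (SD, n = 6), where it was called as well (0.97 ± 0.18, adjusted P = 5.91e-05). Of its 3113 exon bases, 244 lie within *Dzank1* on the opposite strand without sharing exon bases, and *Dzank1* had means of 38.7 ± 4.21 FPKM over the 6 brain and 26.0 ± 8.40 FPKM over the 6 cerebellum libraries (± SD) and of 1.08 FPKM or less in the other tissues. Among the heart libraries *Zfp133-ps* was highest in female heart replicate 3, at 0.990 FPKM, the library high in *Adipoq* and *Sln*.

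Below these, 32 genes had counts but did not pass the filter on low counts, with at most 103 counts in all and a tissue mean of at most 0.331 FPKM, and 12 of them had their highest mean in testis. *Gm49960*, the gene with most exons, passed the filter with 59 counts and was called in no tissue. *Rmi2* shares 121 of its 7292 exon bases on the opposite strand and had tissue means of 0.0525 to 0.458 FPKM.

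The genes below 1 FPKM included relics of genes with a known role in other mammals. *Mlnr-ps*, from the receptor of the gut hormone motilin, had 16 counts in all, 3 of them in colon and 7 in testis. *Best4-ps*, from a bestrophin chloride channel, had 74 counts and was at 0.148 FPKM or less in each colon library. Its mean in ovary was 0.140 FPKM with 14 of 16 counts in replicate 3, and 0.0291 FPKM without that library, below the 0.112 FPKM of cerebellum. *Krt74*, from a keratin of the hair follicle, had 8 counts, all in testis, with 3, 2 and 3 per library. No count at all was seen for *AC110556.1*, *AC141882.1*, *Gm50014* and *Gm48864*, which are short, with 88 to 188 exon bases. A count of 0 allows up to 3 counts, which for these genes corresponds to 1.36 to 2.90 FPKM in the library of lowest depth and 0.441 to 0.942 FPKM in that of highest depth. Lower levels were not detectable, and these limits cover counting error only.

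Between the sexes, no unitary pseudogene passed the test. The power for small differences was low, since in simulated counts of male against female brain the test found 19% of 2-fold changes. In brain, cerebellum, heart and colon, 0 of the 36 tested were called with edgeR, and 0.0368%, 0.0301%, 0.0635% and 0.324% of all genes tested were. At an unadjusted P under 0.05, there were 2 in brain, 1 in cerebellum, 3 in heart and 2 in colon, beside 4.83%, 3.06%, 9.65% and 8.85% of all genes tested, and DESeq2 called 0 in each tissue. The counts over all genes moved with single libraries. In heart, 19 genes became 246 and 285 without female heart replicate 1 or 2 and 7 and 9 without male heart replicate 1 or 2, and in colon 97 became 43 and 58 without male colon replicate 1 or 2 and 157 without female heart replicate 3. The smallest adjusted P was that of *LOC102637012* in heart, at 0.0398 and 0.132 FPKM in the 2 males and 0 in the 3 females, from 9 counts in all (adjusted P = 0.162). *1700086L19Rik* was higher in every male brain library than in every female one, at 32.5, 36.8 and 34.6 FPKM against 19.05, 28.3 and 26.3 FPKM, and did not pass the test (log2 difference 0.57 ± 0.44, SE, adjusted P = 1). Other genes had separate libraries too, in either direction. In colon, *AC158912.1* was higher in every female library, at a mean of 2.58 ± 0.692 FPKM against 1.19 ± 0.396 FPKM in males (SD, n = 3 each), and was not called.

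Outside these 72, the unitary pseudogenes *1700031M16Rik* and *Thap6* were counted under loci built from Iso-seq reads, whose entries carry no such biotype. The first was at 287 ± 29.8 FPKM in testis (SD, n = 3) and at 0.144 FPKM or less in the other tissue means. None of the 72 appears in the deposited map from genes to Iso-seq loci. This was largely fixed by the annotation, into which the study merged only genes that did not overlap Iso-seq transcripts on the same strand. It therefore does not say whether Iso-seq can detect unitary pseudogenes.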

How the data were processed

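RNA-seq read counts per gene in 29 libraries were used as deposited. According to the submitters' processing notes, the authors used FastQC 0.11.8, MultiQC 0.9, HISAT2 2.0.5 and featureCounts 1.6.3 with the mm10 build. The methods of the study describe an annotation of Iso-seq transcripts joined with Ensembl genes that did not overlap them on the same strand, and only uniquely mapped reads were kept, so reads shared with a near-identical copy are lost. Whether counting used the strand is not given in the sources used here. Counts were not normalised before deposit, and all columns were used.

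From the counts, FPKM was computed as CPM per kilobase of the union of exons, and tissue means weight libraries equally. Differences were tested with edgeR 4.0.16 (R 4.3.3; quasi-likelihood test, TMM normalisation, filterByExpr, 10 groups in a single fit over all genes, Benjamini-Hochberg adjustment, threshold 0.05), and the SE is the log2 difference divided by the square root of F. DESeq2 1.42.0, RLE factors, no filter, a replicate block and leaving out each library were alternatives. The test script was tested on simulated counts with 200 changed genes. For testis it found 63% of 4-fold and 40% of 2-fold changes, and 8.85% of its calls were false. For male against female brain it found 67% and 19%, with 2.27% of its calls false. Tables and figures were made with Python 3.11.15.

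The genes, lists and tests were chosen with earlier results of these data known. Named genes were those that reached 1 FPKM in a tissue mean, the gene just under it, up to 3 per comparison and direction with the smallest adjusted P whose libraries did not overlap, their neighbours and overlapping genes, and the marker genes. The other genes named in colon, cerebellum and testis below 1 FPKM, *Zfp133-ps*, *Gm49960*, *Mlnr-ps*, *Best4-ps*, *Krt74* and the 4 genes without counts were chosen after their values were seen. Depth sets the precision, since 1 count in the library of median depth is 0.0410 CPM. Iso-seq reads and intron sequences were not analysed here. 1 of the tissue markers did not meet the marker check and is not reported here by name.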

Additional observations from a re-analysis of the deposited data

Results flagged for a closer look

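In 22 sets of 5 or 6 libraries of a tissue, the highest and lowest library of a named gene were compared with the rest by Dixon's criterion at the 95% level. Chance marks about 1 in 20 such sets, and 4 were marked. *Abhd11os* was at 5.04 FPKM in female brain replicate 1, with the next library of brain at 4.003 FPKM. *AC145556.1* was at 2.06 FPKM in female brain replicate 1, with the next at 1.08 FPKM, and at 4.92 FPKM in female colon replicate 1, with the next at 2.33 FPKM. *AC166934.1* was at 2.78 FPKM in male colon replicate 1, with the next at 0.875 FPKM.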

How the results depend on the processing

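The numbers of unitary pseudogenes called were 11 in brain, 14 in cerebellum, 10 in heart, 17 in colon, 13 in ovary and 22 in testis, and leaving out single libraries gave 10 to 13, 12 to 15, 8 to 11, 14 to 17, 9 to 14 and 20 to 25, where 51.9% to 57.7%, 49.02% to 54.5%, 43.1% to 53.5%, 55.01% to 60.6%, 36.1% to 44.7% and 61.4% to 68.6% of all genes tested were called. The 23 genes at 1 FPKM became 22 to 25 and the 26 highest in testis 23 to 27. Without the 14 genes that share exon bases with a gene on the opposite strand, an alternative chosen after seeing the data, 8 were called in cerebellum and 13 in testis and 15 stood at 1 FPKM, because fewer genes remain. A limit of 2 FPKM left 12 and one of 0.5 FPKM gave 31. With TMM-scaled library sizes 20 stood at 1 FPKM and 29 were highest in testis. Without the filter, 13, 14, 12, 19, 14 and 31 of 68 were called in the same order of tissues, where 38.8%, 36.1%, 33.6%, 40.5%, 29.1% and 53.5% of all genes were. With a replicate block, the calls were 9 in brain, 15 in cerebellum, 10 in heart, 16 in colon, 11 in ovary and 21 in testis, where 54.3%, 51.0%, 49.9%, 57.8%, 40.05% and 65.8% of all genes tested were called. With RLE factors the median over all genes tested moved by -0.13 in brain, 0.15 in colon and 0.13 in testis on the log2 scale, and the counts of unitary pseudogenes called moved by at most 1. Libraries with the same number did not deviate together (median r of -0.00057 over 56 pairs, 0 over 0.1), and 6 of 112 pairs with other numbers were over 0.1. Differences between single libraries could hide a weak shared effect, so whether the numbers pair libraries of an animal was not settled. Of 822 alternative fits of the 25 named genes that were called in their highest tissue, 813 kept direction and call, 9 lost the call and 0 reversed, and 19 genes kept it in all. *AC166934.1* was not called in any of its alternatives. Besides the losses given above, *AC161166.1* lost its call with DESeq2 (adjusted P = 0.0593), with the replicate block (0.133) and without ovary replicate 3 (0.0509), and *Scml1* lost its call in ovary with the block (0.0565). Calls between the sexes stayed at 0 unitary pseudogenes in every alternative, while over all genes DESeq2 called 35 in brain, 21 in cerebellum, 255 in heart and 339 in colon, where edgeR called 11, 9, 19 and 97. Depth limits the 13 genes with 1 to 9 counts in all, which did not pass the filter.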
